A study of Homo sapiens with 18 samples.

Results

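The 10 genes described here encode enzymes and a transporter of serine, glycine and one-carbon metabolism, and they were taken by symbol (PHGDH, PSAT1, PSPH, SHMT1, SHMT2, MTHFD1, MTHFD2, MTHFD1L, ALDH1L2 and SLC6A9) from 23411 gene symbols counted by RNA-seq. All 10 symbols were found, and all 10 passed the filter on low counts in every comparison. The counts came from 18 samples of ARPE-19, an immortalized human line of the retinal pigment epithelium, with 3 samples in each of 6 groups. Control cells had received the lentiviral Cas9 vector without a guide RNA, and NRF2 ΔC cells the same vector with a guide to exon 5 of NFE2L2, the gene of the stress-responsive transcription factor NRF2. The 2 edited alleles carry stop codons at positions 503 and 505, so that the protein lacks its C-terminal end. Every NRF2 ΔC sample is of a single clone, C1. Cells of each line were left untreated (given only water), or received 0.2 mM H2O2 or 1 mM NACET, the cell-permeable ethyl ester of N-acetyl-L-cysteine. The protocol attached to the samples gives treatments of 2 h after 22 h in 1% serum, whereas the text on the whole series gives 8 h after 40 h in 10% serum. The published methods of the study describe the longer treatment as well, and the counts do not settle which holds. The labels do not say whether the 3 samples of a group were separate cultures, so p-values measure the spread between these samples, which may be technical.

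Cells make serine from a glycolytic intermediate, and serine hydroxymethyltransferases split it into glycine and a one-carbon unit carried by tetrahydrofolate. The folate enzymes exist as parallel cytosolic and mitochondrial sets, which exchange formate and feed the synthesis of purines, thymidylate and methionine. Serine and glycine are also precursors of cysteine and glutathione, and several genes of this pathway are known targets of ATF4, the transcription factor of the integrated stress response.

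Each sample held between 16673306 and 25951154 reads on genes, and levels are given as CPM, the reads of a gene per 1000000 of these reads after TMM scaling. Of 10 markers of the retinal pigment epithelium, 3 (RPE65, RLBP1 and TYR) were under 1 CPM in every sample and BEST1, PMEL and SERPINF1 were under 5 CPM. MITF (at least 64.8 CPM), OTX2 (at least 107 CPM), KRT8 (at least 425 CPM) and KRT18 (at least 253 CPM) were present throughout. The mRNA of NFE2L2 was at 120 to 127 CPM in untreated control cells and at 124 to 128 CPM in untreated NRF2 ΔC cells, which does not check the edit, since a late stop codon need not lower the transcript. The NRF2 target NQO1 was at 168 to 1215 CPM in the control samples and at 11.4 to 22.6 CPM in the NRF2 ΔC samples. Replicate 1 had the lowest value in 6 of 6 groups for 6 of the 10 genes (PHGDH, PSAT1, SHMT2, MTHFD1, MTHFD2 and MTHFD1L) and for ATF4, in 5 groups for PSPH and SHMT1, in 3 for SLC6A9 and in 0 for ALDH1L2. Samples that share a number within a line deviated from their group means together. For the 10 genes, fits with this number as a block are therefore given for the comparisons within a line, where they changed a call or a count. For the other lists the calls that such fits added with either treatment are given after the unblocked counts. The blocked fits take the spread of a gene largely from all genes, and their p-values are far smaller. Exons of SHMT1, SHMT2, MTHFD1, MTHFD2 and SLC6A9 overlap those of a gene on the other strand (SMCR8, NDUFA4L2, ZBTB25, SLC4A5 and CCDC24), and counting took no account of strand. Reads that fit more than 1 counted gene were left out as ambiguous (0.955% to 1.18% of reads per sample). Where both genes were annotated for counting, this may lower the counts of such genes. GENCODE, used here for positions and not known to be the annotation used for counting, also holds 14 pseudogenes of PSAT1, PSPH, SHMT1, MTHFD1 and MTHFD2. None of their symbols was among those counted. Reads that map to several places were not counted, so such copies may lower the counts of these genes.

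The bases before the start of the 3 genes with the largest H2O2 responses, and of SHMT1, the 1 gene that moved the other way, are shown so that these letters can be read beside the values. The 100 bases of each are from RefSeq (GRCh38.p14), run 5′ to 3′ along the gene in lower case and end 1 base before the annotated start. SLC6A9 is at chr1:44031463-44031562 on the minus strand, PSAT1 at chr9:78297025-78297124 and MTHFD2 at chr2:74198515-74198614 on the plus strand, and SHMT1 at chr17:18363551-18363650 on the minus strand.
SLC6A9: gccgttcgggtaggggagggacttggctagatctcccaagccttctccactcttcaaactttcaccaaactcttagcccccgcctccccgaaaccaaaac
PSAT1: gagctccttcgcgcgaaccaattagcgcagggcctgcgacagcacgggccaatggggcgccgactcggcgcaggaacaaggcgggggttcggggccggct
MTHFD2: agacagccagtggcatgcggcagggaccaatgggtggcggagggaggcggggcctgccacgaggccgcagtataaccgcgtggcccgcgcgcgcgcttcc
SHMT1: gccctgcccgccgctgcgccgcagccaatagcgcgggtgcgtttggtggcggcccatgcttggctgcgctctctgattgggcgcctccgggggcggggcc
The stretch of SLC6A9 held 56% G and C, that of PSAT1 71%, that of MTHFD2 73% and that of SHMT1 76%.

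Windows from 250 bases before to 50 bases after each annotated start were searched on both strands for the core of the ATF4 composite site (CARE, TGATGNAA) and the core of the antioxidant response element bound by NRF2 (ARE, TGACNNNGC). Promoters were found in the table for 7 of the 10 genes and not for PSPH, SHMT2 and ALDH1L2. Of the 7, MTHFD1L alone held the CARE core and MTHFD2 alone the ARE core, beside 3.62% and 13.3% of all 35116 windows. Those shares are per window, while the members are counted per gene and MTHFD1L has several windows, so they are unlike measures. The 30 bases around each match are printed with the match in capitals. They lie at chr6:150866346-150866375 for MTHFD1L, where 3 of its annotated starts share the match, and at chr2:74198611-74198640 for MTHFD2, where the match lies on the opposite strand, from the 7th transcribed base on.
MTHFD1L: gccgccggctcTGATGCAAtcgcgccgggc
MTHFD2: ttccctcccgGCGCAGTCAccggcgcggtc
A match describes letters and is not a site shown to be bound, and bases outside the windows were not searched.

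**Figure D1:**
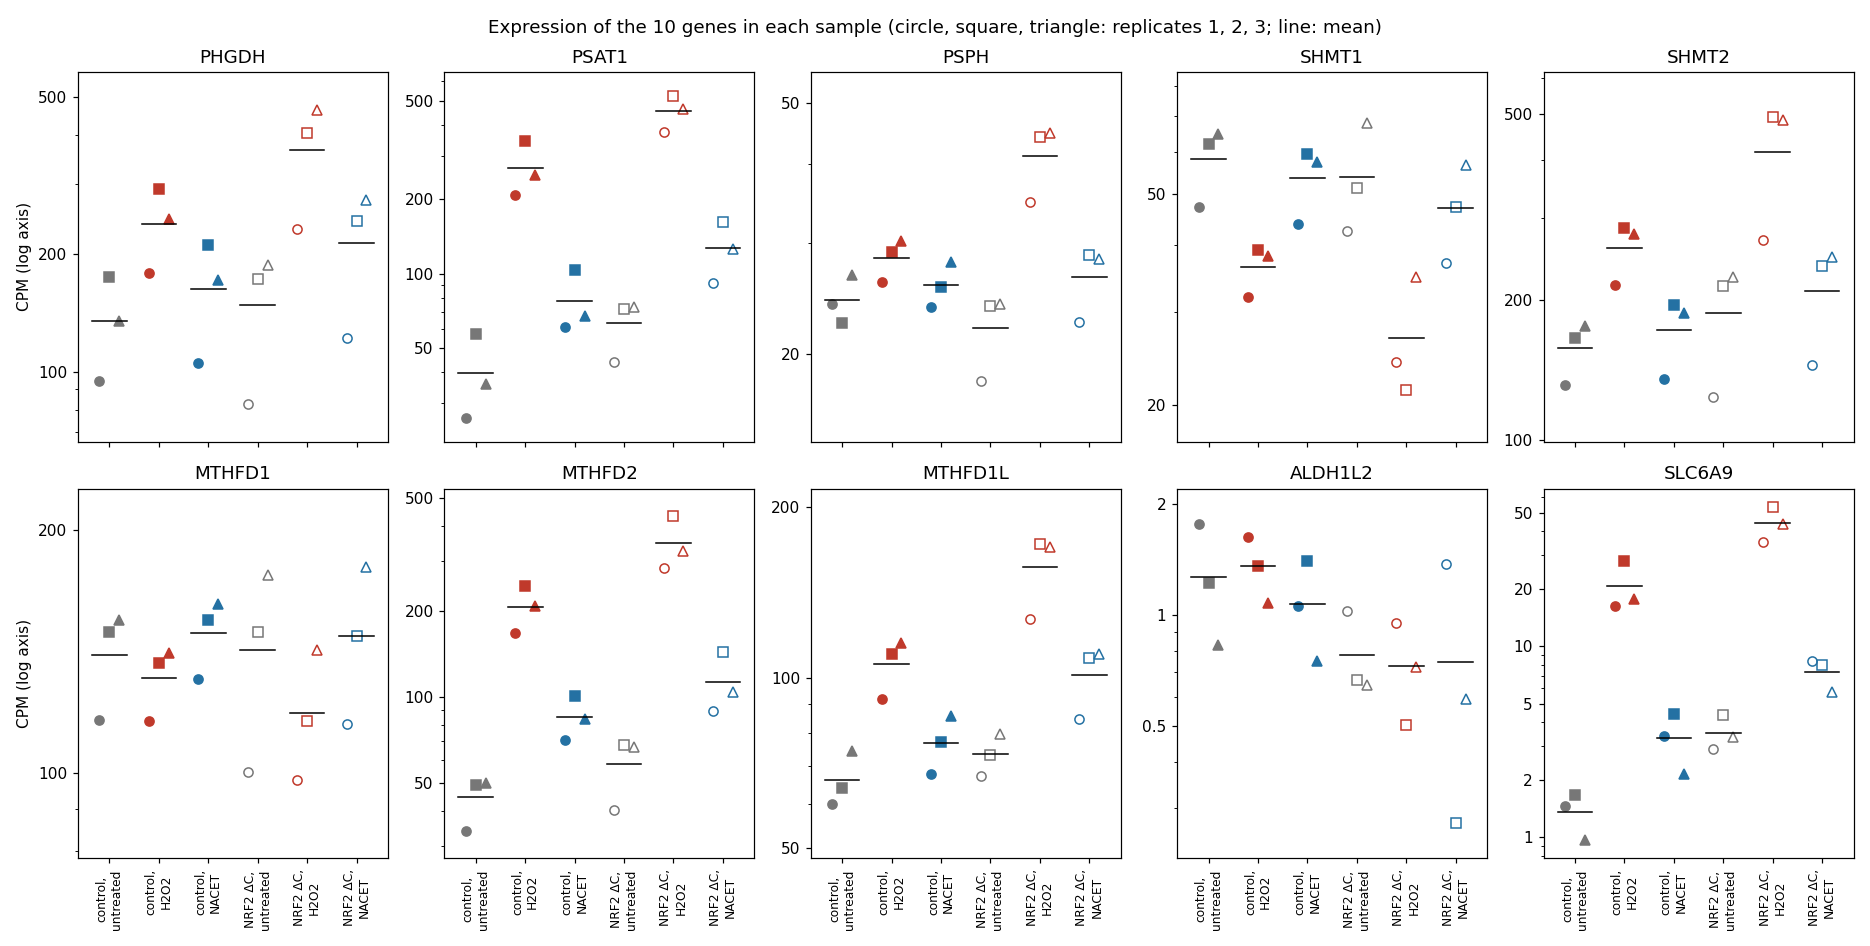
CPM of each of the 10 genes (log axis) in the 18 samples, by group; filled symbols are control cells, open symbols NRF2 ΔC cells, and lines are group means. SLC6A9, PSAT1 and MTHFD2 were highest with H2O2 in both lines, SHMT1 was lowest there, and MTHFD1 and ALDH1L2 overlapped between all treatments.

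With H2O2, PHGDH and PSAT1 of serine synthesis, SHMT2, MTHFD2 and MTHFD1L of the mitochondrial one-carbon route and the glycine transporter gene SLC6A9 rose in both lines. The cytosolic SHMT1 fell in both, and MTHFD1 and ALDH1L2 did not pass the test in either. The test was edgeR's quasi-likelihood test with p-values adjusted by Benjamini-Hochberg, and a gene passed with an adjusted p under 0.05 and a size of 0.6 or more on the log2 scale. Against untreated control cells 7 of the 10 genes passed, 6 of them higher, beside 6.33% of the 13691 genes tested. Against untreated NRF2 ΔC cells 8 passed, 7 of them higher (PSPH was the one added), beside 9.81% of the 13543 genes tested. The median log2 fold change of the 10 genes was 0.71 in control cells, where that of all genes was -0.0038. For NRF2 ΔC cells the medians were 1.13 and -0.0086. In bulk RNA, a change in the level per cell and a change in the share of cells that express a gene cannot be told apart.

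Among the serine synthesis enzymes, PSAT1, the transaminase of the middle step (chr9:80912041-80945009, plus strand), had the largest change. Gene positions here and below are in GRCh37 (hg19). PSAT1 was at 26.2, 57.2 and 35.9 CPM in untreated control cells (replicates 1, 2 and 3) and at 208.8, 343.7 and 251.4 CPM with H2O2. The NRF2 ΔC samples held PSAT1 at 43.9, 72.0 and 73.2 CPM untreated and at 373.8, 523.6 and 461.9 CPM with H2O2. The H2O2 samples of either line were all far above every untreated sample, with no overlap. PSAT1 rose 6.83-fold in control cells (log2 fold change 2.77 ± 0.29 SE, adjusted p = 0.00202, edgeR) and 7.21-fold in NRF2 ΔC cells (2.85 ± 0.23, adjusted p = 0.00105, edgeR).

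PHGDH, which opens the serine pathway by oxidizing 3-phosphoglycerate (chr1:120191034-120286841, plus strand), was at 94.5, 174.7 and 134.2 CPM in untreated control cells and at 178.2, 291.3 and 244.7 CPM with H2O2. PHGDH in NRF2 ΔC cells was at 82.8, 172.2 and 187.3 CPM untreated and at 231.5, 405.8 and 465.0 CPM with H2O2. The treated and untreated samples did not overlap in either line, although in control cells the lowest H2O2 value was just above the highest untreated value. The log2 fold change of PHGDH was 0.84 ± 0.23 in control cells (adjusted p = 0.0471, edgeR) and 1.32 ± 0.33 in NRF2 ΔC cells (adjusted p = 0.0367, edgeR).

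PSPH, the phosphatase that releases serine in the last step (chr7:56078744-56119297, minus strand), was at 23.99, 22.35 and 26.69 CPM in untreated control cells and at 25.99, 29.05 and 30.19 CPM with H2O2, which overlapped. PSPH in NRF2 ΔC cells was at 18.1, 23.8 and 24.0 CPM untreated and at 34.8, 44.1 and 44.8 CPM with H2O2, which did not overlap. PSPH passed the test in NRF2 ΔC cells (log2 fold change 0.91 ± 0.17, adjusted p = 0.0145, edgeR) and not in control cells (0.24 ± 0.11, adjusted p = 0.173, edgeR). With the replicate block PSPH had an adjusted p of 0.0145 (edgeR) in control cells, but its log2 fold change, again 0.24, stayed under the limit of 0.6.

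Of the mitochondrial enzymes, MTHFD2, a bifunctional dehydrogenase and cyclohydrolase (chr2:74413299-74444692, plus strand), was at 33.9, 49.2 and 50.2 CPM in untreated control cells and at 168.5, 244.8 and 209.9 CPM with H2O2. MTHFD2 in NRF2 ΔC cells was at 40.2, 68.0 and 67.1 CPM untreated and at 283.3, 432.2 and 326.7 CPM with H2O2. Here too every H2O2 sample was above every untreated sample. MTHFD2 rose 4.73-fold in control cells (log2 fold change 2.24 ± 0.18, adjusted p = 0.000954, edgeR) and 5.96-fold in NRF2 ΔC cells (2.58 ± 0.24, adjusted p = 0.00146, edgeR).

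SHMT2, the mitochondrial serine hydroxymethyltransferase (chr12:57623356-57628718, plus strand), was at 131.6, 166.1 and 176.1 CPM in untreated control cells and at 214.9, 285.3 and 276.4 CPM with H2O2. SHMT2 in NRF2 ΔC cells was at 124.1, 214.4 and 223.7 CPM untreated and at 268.6, 493.6 and 486.3 CPM with H2O2. The treated and untreated samples were separate in both lines, and in NRF2 ΔC cells replicates 2 and 3 with H2O2 were the highest of the series. The log2 fold change of SHMT2 was 0.73 ± 0.14 in control cells (adjusted p = 0.0153, edgeR) and 1.16 ± 0.28 in NRF2 ΔC cells (adjusted p = 0.0329, edgeR).

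MTHFD1L, the mitochondrial enzyme that releases formate (chr6:151186815-151423023, plus strand), was at 59.99, 63.87 and 74.14 CPM in untreated control cells and at 91.80, 110.004 and 115.17 CPM with H2O2. MTHFD1L in NRF2 ΔC cells was at 67.2, 73.0 and 79.6 CPM untreated and at 127.2, 172.6 and 170.0 CPM with H2O2. These groups did not overlap in either line. The log2 fold change of MTHFD1L was 0.70 ± 0.11 in control cells (adjusted p = 0.00875, edgeR) and 1.10 ± 0.16 in NRF2 ΔC cells (adjusted p = 0.00564, edgeR). ALDH1L2, the mitochondrial 10-formyltetrahydrofolate dehydrogenase (chr12:105413562-105501421, minus strand), stayed between 0.27 and 1.76 CPM in all 18 samples, and its log2 fold change with H2O2 was 0.10 ± 0.33 in control cells (adjusted p = 0.877, edgeR) and -0.09 ± 0.36 in NRF2 ΔC cells (adjusted p = 0.892, edgeR). Its level is too low for these counts to settle a direction.

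Neither cytosolic enzyme passed as higher. SHMT1, the cytosolic serine hydroxymethyltransferase (chr17:18231174-18266877, minus strand), was at 47.3, 62.0 and 64.9 CPM in untreated control cells and at 32.0, 39.2 and 38.1 CPM with H2O2. SHMT1 in NRF2 ΔC cells was at 42.5, 51.3 and 67.9 CPM untreated and at 24.1, 21.3 and 34.9 CPM with H2O2. Every H2O2 sample was below every untreated sample of its line. SHMT1 fell by 0.65 on the log2 scale in control cells (± 0.13, adjusted p = 0.0190, edgeR) and by 1.00 in NRF2 ΔC cells (± 0.23, adjusted p = 0.0280, edgeR), the only decrease among the 10 genes that passed in these comparisons. MTHFD1, the trifunctional cytosolic enzyme (chr14:64854749-64930175, plus strand), was at 116 to 155 CPM in untreated and at 116 to 141 CPM in H2O2-treated control cells, which overlapped (log2 fold change -0.08 ± 0.12, adjusted p = 0.714, edgeR). MTHFD1 in NRF2 ΔC cells was at 100.2, 149.6 and 175.8 CPM untreated and at 97.8, 115.8 and 141.9 CPM with H2O2, which overlapped too (-0.25 ± 0.22, adjusted p = 0.464, edgeR).

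SHMT2 and MTHFD2 thus moved apart from their cytosolic counterparts, and the ratio of their read counts shows this within each sample, without any scaling between libraries. The ratio of SHMT2 to SHMT1 was 2.78, 2.68 and 2.71 in untreated control cells and 6.71, 7.27 and 7.25 with H2O2. Among NRF2 ΔC samples it was 2.92, 4.18 and 3.29 untreated and 11.1, 23.1 and 13.9 with H2O2. With NACET the ratio was 3.08, 3.28 and 3.26 in control cells against 3.91, 4.99 and 4.36 in NRF2 ΔC cells, so that the H2O2 samples of each line were above all others of that line. The ratio of MTHFD2 to MTHFD1 was 0.292, 0.330 and 0.325 in untreated control cells and 1.46, 1.79 and 1.49 with H2O2. Among NRF2 ΔC samples it was 0.402, 0.454 and 0.382 untreated and 2.90, 3.73 and 2.30 with H2O2. More MTHFD2 than MTHFD1 reads were thus counted in every H2O2 sample and fewer in every other sample. The ratios were chosen after the values were seen, so the test of them is a description and adds no support. For each ratio, H2O2 against untreated cells gave a 2-sided exact permutation p of 0.1, the smallest that 3 against 3 samples allow, in both lines (adjusted over 18 comparisons, 0.1125). The other comparisons gave this same permutation p, those with NACET included, apart from the following. It was 0.2 for SHMT2 to SHMT1 with NACET against untreated NRF2 ΔC cells, and 0.2 for MTHFD2 to MTHFD1 between the lines with NACET. The test thus does not set H2O2 apart.

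**Figure D2:**
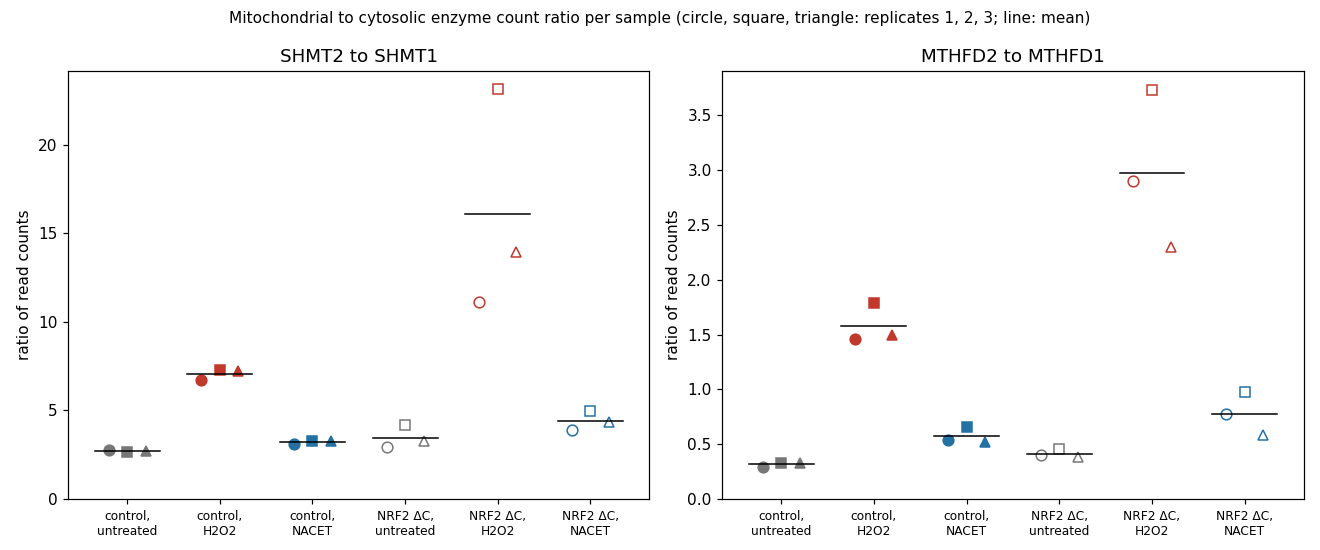
Ratio of read counts per sample (axis from 0) for the serine hydroxymethyltransferases (SHMT2 to SHMT1) and the methylenetetrahydrofolate dehydrogenases (MTHFD2 to MTHFD1); filled symbols are control cells and open symbols NRF2 ΔC cells. The SHMT2 to SHMT1 ratio had a mean of 2.72 in untreated and 7.08 in H2O2-treated control cells, and of 3.46 and 16.1 in NRF2 ΔC cells, where replicate 2 with H2O2 stood at 23.1.

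SLC6A9, the plasma membrane glycine transporter GLYT1 (chr1:44457172-44497139, minus strand), had the largest fold change of the 10 genes and one of the lowest levels. SLC6A9 was at 1.5, 1.7 and 1.0 CPM in untreated control cells and at 16.2, 27.8 and 17.6 CPM with H2O2. SLC6A9 in NRF2 ΔC cells was at 2.9, 4.3 and 3.3 CPM untreated and at 34.9, 53.4 and 43.3 CPM with H2O2. All H2O2 samples of a line were above all its untreated and NACET samples. SLC6A9 rose 15.3-fold in control cells (log2 fold change 3.93 ± 0.28, adjusted p = 0.000836, edgeR) and 12.4-fold in NRF2 ΔC cells (3.64 ± 0.23, adjusted p = 0.000291, edgeR).

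Both H2O2 counts were smaller in some other fits, while PSAT1, MTHFD2 and SLC6A9 passed in every alternative run. For control cells 4 genes passed in 1 fit of all 18 samples, with no share of all genes given. In those cells 3 passed without H2O2 replicate 2, where 2.09% of all genes passed. Leaving out 1 sample there ended the calls of PHGDH (untreated replicate 1 or 3, H2O2 replicate 2 or 3) and SHMT1 (untreated replicate 2 or 3, H2O2 replicate 1 or 2). It also ended those of SHMT2 (untreated or H2O2 replicate 2) and MTHFD1L (H2O2 replicate 2). For NRF2 ΔC cells 4 genes passed without untreated or H2O2 replicate 2 (beside 2.39% and 2% of all genes) and 5 without untreated replicate 3 (beside 3.47%). The calls of PHGDH and SHMT2 ended without untreated or H2O2 replicate 2 or 3, that of SHMT1 without untreated replicate 2 or 3 or H2O2 replicate 2, and that of PSPH without untreated or H2O2 replicate 2. With the replicate block the counts stayed at 7 and 8, beside 10.2% and 18.7% of all genes.

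Levels of different genes were compared as CPM per kilobase of the annotated canonical transcript (CPM per kb). The lengths are from GENCODE, which may not be the annotation used for counting. Dropped reads of pseudogene copies may lower PSAT1, PSPH, SHMT1, MTHFD1 and MTHFD2, so ranks between genes are approximate. In untreated control cells SHMT2 (73.2 ± 10.8 CPM per kb, SD, n = 3) and PHGDH (72.1 ± 21.5) were highest and did not differ beyond their spread, followed by MTHFD1 (44.4 ± 6.56). SHMT1 (23.0 ± 3.73), MTHFD1L (19.1 ± 2.12) and PSAT1 (18.0 ± 7.18) came next, within their spread of each other. PSPH (12.3 ± 1.11) and MTHFD2 (10.1 ± 2.07) followed, and SLC6A9 (0.424 ± 0.111) and ALDH1L2 (0.171 ± 0.0630) were far below. In H2O2-treated control cells PHGDH (127.6 ± 30.5), PSAT1 (121.5 ± 31.3) and SHMT2 (120.0 ± 17.8) were within their spread of each other, and MTHFD2 (47.2 ± 8.67) was within the spread of MTHFD1 (41.6 ± 4.27). With H2O2 in NRF2 ΔC cells PSAT1 (205.4 ± 34.1), PHGDH (196.9 ± 65.0) and SHMT2 (192.9 ± 59.3) were again within their spread. There MTHFD2 (78.9 ± 17.4) was above MTHFD1 (37.6 ± 7.04), and SLC6A9 (13.7 ± 2.88) was above SHMT1 (10.6 ± 2.83) by about their spread.

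NACET moved fewer of these genes. In control cells MTHFD2 alone passed the test (0.94 ± 0.18, adjusted p = 0.0342, edgeR), beside 2.75% of all genes. MTHFD2 was at 70.9, 101.1 and 83.9 CPM with NACET, above every untreated control sample. SLC6A9 was at 3.4, 4.4 and 2.1 CPM and PSAT1 at 61.2, 104.0 and 67.7 CPM with NACET, also above all untreated values, and their log2 fold changes of 1.26 ± 0.33 (adjusted p = 0.0784, edgeR) and 0.96 ± 0.30 (adjusted p = 0.117, edgeR) did not pass. Blocking by replicate number, all 3 genes passed (MTHFD2 0.94, PSAT1 0.99 and SLC6A9 1.26, the last with an adjusted p of 2.79e-08 in edgeR), beside 7.49% of all genes. In the unblocked fits MTHFD2 lost its call without any 1 of the 3 untreated replicates or of NACET replicates 1 and 2, in fits that called 0.223% to 1.37% of all genes. In the fit without NACET replicate 3, 2 genes passed (MTHFD2 and SLC6A9), beside 2.43% of all genes.

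Among NRF2 ΔC samples 0 of the 10 genes passed with NACET, beside 1.39% of all genes. In edgeR 4 had an unadjusted p under 0.05, and DESeq2 called 3, with no share of all genes given for either. SLC6A9 was at 8.3, 7.9 and 5.7 CPM, PSAT1 at 92.0, 161.7 and 126.1 CPM and MTHFD2 at 89.2, 144.1 and 104.6 CPM, each above every untreated NRF2 ΔC sample. The log2 fold changes were 1.05 ± 0.23 for SLC6A9 (adjusted p = 0.0656, edgeR), 0.99 ± 0.25 for PSAT1 (adjusted p = 0.0910, edgeR), 0.93 ± 0.24 for MTHFD2 (adjusted p = 0.0965, edgeR) and 0.46 ± 0.13 for MTHFD1L (adjusted p = 0.126, edgeR). With the replicate block SLC6A9 (1.05), PSAT1 (1.00) and MTHFD2 (0.95) passed in edgeR, beside 8.82% of all genes, the largest of the 3 adjusted p-values being 9.65e-05. In the unblocked fits PSAT1 and MTHFD2 passed without NACET replicate 1, beside 3.38% of all genes. Apart from the genes named, log2 fold changes with NACET lay between -0.27 and 0.26 in control cells and between -0.21 and 0.51 in NRF2 ΔC cells.

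**Figure D3:**
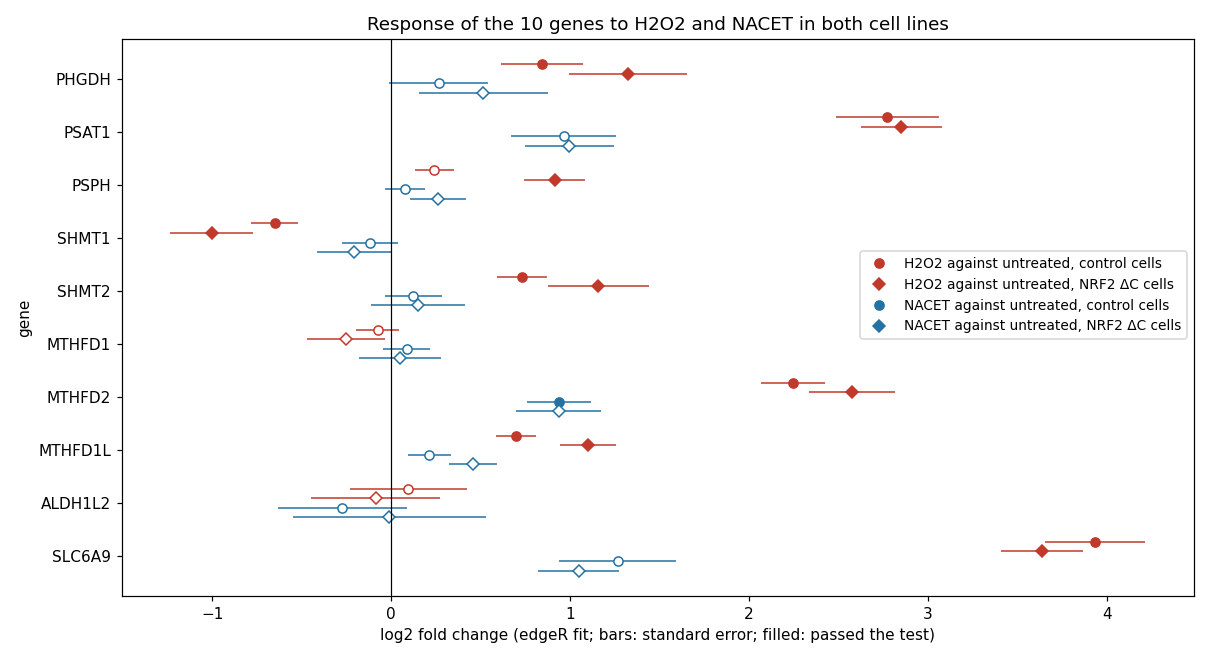
Log2 fold change against untreated cells of the same line for the 10 genes (points, with bars of 1 standard error from the edgeR fit); circles are control cells, diamonds NRF2 ΔC cells, red H2O2 and blue NACET, and filled points passed the test. With H2O2 8 of 10 points for NRF2 ΔC cells and 7 of 10 for control cells are filled, and with NACET only MTHFD2 in control cells is.

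The treatments were compared directly within each line, at different doses (1 mM NACET and 0.2 mM H2O2), and these comparisons share samples with those against untreated cells. In control cells 3 of the 10 genes were lower with NACET than with H2O2, beside 3.67% of all genes. They were SLC6A9 (log2 fold change -2.66 ± 0.30, adjusted p = 0.00481, edgeR), PSAT1 (-1.80 ± 0.24, adjusted p = 0.00786, edgeR) and MTHFD2 (-1.29 ± 0.17, adjusted p = 0.00712, edgeR). In the blocked fit SHMT2 passed too (-0.60, adjusted p = 6.93e-07, edgeR), making 4 genes beside 7.5% of all genes. For NRF2 ΔC cells 5 genes were lower with NACET, beside 8.31% of all genes. They were SLC6A9 (-2.57 ± 0.22), PSAT1 (-1.83 ± 0.22), MTHFD2 (-1.62 ± 0.22), PSPH (-0.63 ± 0.16) and MTHFD1L (-0.62 ± 0.16). With the replicate block 8 passed there, beside 15.5% of all genes, the added genes being SHMT2 (-0.97), PHGDH (-0.81) and, higher with NACET, SHMT1 (0.82). In the unblocked fits of NRF2 ΔC cells 3 genes passed without H2O2 replicate 2 or NACET replicate 2 or 3 (beside 1.87% to 2.8% of all genes), and PSPH and MTHFD1L kept their calls only when H2O2 replicate 1 was left out.

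NRF2 ΔC cells were also compared with control cells under the same treatment, a comparison of 1 clone with the control line. SLC6A9 was higher in untreated NRF2 ΔC cells (log2 fold change 1.37 ± 0.27, adjusted p = 0.0265, edgeR), its 3 values (2.88 to 4.34 CPM) lying above all 3 control values (0.966 to 1.66 CPM). None of the other 9 genes passed there, beside 3.85% of all genes. With NACET 0 genes passed, beside 4.76% of all genes, and SLC6A9 had a log2 fold change of 1.16 ± 0.28 (adjusted p = 0.0610, edgeR). In edgeR 3 genes had an unadjusted p under 0.05, and DESeq2 called 1, SLC6A9, with no share of all genes given for either. With H2O2 SLC6A9 (1.09 ± 0.23, adjusted p = 0.0239, edgeR) and MTHFD2 (0.74 ± 0.18, adjusted p = 0.0490, edgeR) were higher in NRF2 ΔC cells, beside 5.62% of all genes called. In edgeR 9 of the 10 genes had an unadjusted p under 0.05, 7 higher in NRF2 ΔC cells and SHMT1 and ALDH1L2 lower. The share of all genes at that limit is not given, so the 9 are not read as a result about the set. Of those that did not pass, PSAT1 had a log2 fold change of 0.75 ± 0.19 (adjusted p = 0.0546, edgeR), SHMT2 of 0.68 ± 0.22 (adjusted p = 0.113, edgeR), PHGDH of 0.62 ± 0.26 (adjusted p = 0.184, edgeR), MTHFD1L of 0.56 ± 0.15 (adjusted p = 0.0581, edgeR) and PSPH of 0.53 ± 0.14 (adjusted p = 0.0587, edgeR).

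These calls rested on single samples. SLC6A9 in untreated cells lost its call without any 1 control replicate or without NRF2 ΔC replicate 2 or 3, in fits that called 1.88% to 3.67% of all genes. With H2O2 0 genes passed without control replicate 1 or 3 or NRF2 ΔC replicate 2 (beside 2.91% to 4.45% of all genes) and 1 without NRF2 ΔC replicate 3 (SHMT1, beside 4%). Without NRF2 ΔC replicate 1 there were 8 (ALDH1L2 lower and 7 higher), but that fit called 2416 of all genes, or 17.6%, where the fit of all 6 samples called 763. Without control replicate 2 the genes called were PSAT1 and SLC6A9 and not MTHFD2, beside 3.02% of all genes.

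Whether the treatment responses themselves differed between the lines was tested by the interaction term, given as the log2 fold change in control cells minus that in NRF2 ΔC cells. In the unblocked edgeR fit 0 of the 10 genes passed for NACET, beside 0.0643% of all genes, with 0 at an unadjusted p under 0.05 and 0 called by DESeq2. For H2O2 0 passed too, beside 0.0214%, with 1 at an unadjusted p under 0.05 (PSPH, -0.69 ± 0.20, adjusted p = 0.418) and 0 called by DESeq2. With the block set within each line 0 passed for NACET, beside 0.9% of all genes, and 4 passed for H2O2, beside 6.91%. The 4 were PSPH (-0.69 ± 0.12, adjusted p = 0.00242, edgeR), PHGDH (-0.51 ± 0.10, adjusted p = 0.00523, edgeR), SHMT2 (-0.44 ± 0.09, adjusted p = 0.00953, edgeR) and MTHFD1L (-0.41 ± 0.11, adjusted p = 0.0286, edgeR), all with the larger rise in NRF2 ΔC cells.

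For the 4 genes the log2 ratios of H2O2-treated to untreated CPM in same-numbered samples are given as a description. They are the counts that the blocked test used, so they add no support to it. The share of all genes whose pairs do not overlap is not given. For PHGDH the ratios of replicates 1, 2 and 3 were 0.91, 0.74 and 0.87 in control cells against 1.48, 1.24 and 1.31 in NRF2 ΔC cells. For PSPH they were 0.12, 0.38 and 0.18 in control cells against 0.94, 0.89 and 0.90 in NRF2 ΔC cells. The pairs of one line did not overlap those of the other for either gene. For SHMT2 they were 0.71, 0.78 and 0.65 in control cells against 1.11, 1.20 and 1.12 in NRF2 ΔC cells. For MTHFD1L they were 0.61, 0.78 and 0.64 against 0.92, 1.24 and 1.09, again without overlap. The 3 genes with the largest responses gave no such call, with interactions of -0.36 ± 0.13 for MTHFD2 (adjusted p = 0.0918, edgeR), -0.08 ± 0.12 for PSAT1 (adjusted p = 0.730, edgeR) and 0.25 ± 0.21 for SLC6A9 (adjusted p = 0.479, edgeR). For SLC6A9 the pairs gave 3.48, 4.07 and 4.19 in control cells against 3.60, 3.62 and 3.70 in NRF2 ΔC cells, which overlap.

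The other genes of the pathway were read from lists of neighbouring reactions. Of the 8 tested genes of serine use, CBS, which condenses serine with homocysteine on the way to cysteine, rose with H2O2 in both lines (1.60 ± 0.13, adjusted p = 0.000954, and 2.29 ± 0.33, adjusted p = 0.00592, edgeR, control cells first). SPTLC3, a subunit of the serine palmitoyltransferase that starts sphingolipid synthesis, fell in both (-0.71 and -0.99), and SPTLC2 fell in NRF2 ΔC cells (-0.67). Among carriers of serine and glycine 3 of 7 tested genes rose and 1 fell in control cells, and 4 of 8 rose and 1 fell in NRF2 ΔC cells. These included SLC1A4, a neutral amino acid exchanger that carries serine (1.47 and 1.89), and SLC1A5, a glutamine and serine carrier (0.98 and 1.20), which rose, and SFXN3, a mitochondrial carrier of serine, which fell (-0.99 and -0.97). The blocked fits added a second fall with H2O2 in NRF2 ΔC cells, that of SLC38A2, and with NACET in those cells they called CBS, SLC1A4 and SLC1A5 higher, where the unblocked fit called 0 genes of either list.

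Elsewhere fewer genes passed. Among folate enzymes and carriers, the mitochondrial folate carrier SLC25A32 rose with H2O2 in control cells (0.81), and 0 of 12 tested genes passed in NRF2 ΔC cells. With the block SLC25A32 and SLC19A1 were called higher in NRF2 ΔC cells, and MTHFD2L in control cells. With NACET SLC25A32 (0.65) and SLC1A5 (0.64) rose in control cells, and in NRF2 ΔC cells SLC25A32 and SLC19A1 were called higher in the blocked fit alone. The glycine cleavage system (GLDC, AMT, GCSH and DLD), which breaks glycine down in mitochondria, had 0 of 4 genes called with either treatment in either line. The blocked fits called GCSH (NACET, control cells, higher) and AMT (NACET, NRF2 ΔC cells, lower). Of 6 genes of purine synthesis PPAT, the first enzyme, passed with H2O2 in control cells (0.76), where the blocked fit added GART, and 0 did in NRF2 ΔC cells. Of the methionine cycle 0 of 7 passed in control cells and 1 of 6 in NRF2 ΔC cells (MTRR, which reactivates methionine synthase, 0.64), all with H2O2. With NACET 0 passed in either line, and the blocked fit called GNMT and BHMT2 higher in control cells. BHMT2, a homocysteine methyltransferase, was lower in NRF2 ΔC cells under every treatment, at 10.5 to 21.0 CPM in the control samples and at 0 to 0.30 CPM in the NRF2 ΔC samples, with at most 6 reads in any of them.

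**Figure D4:**
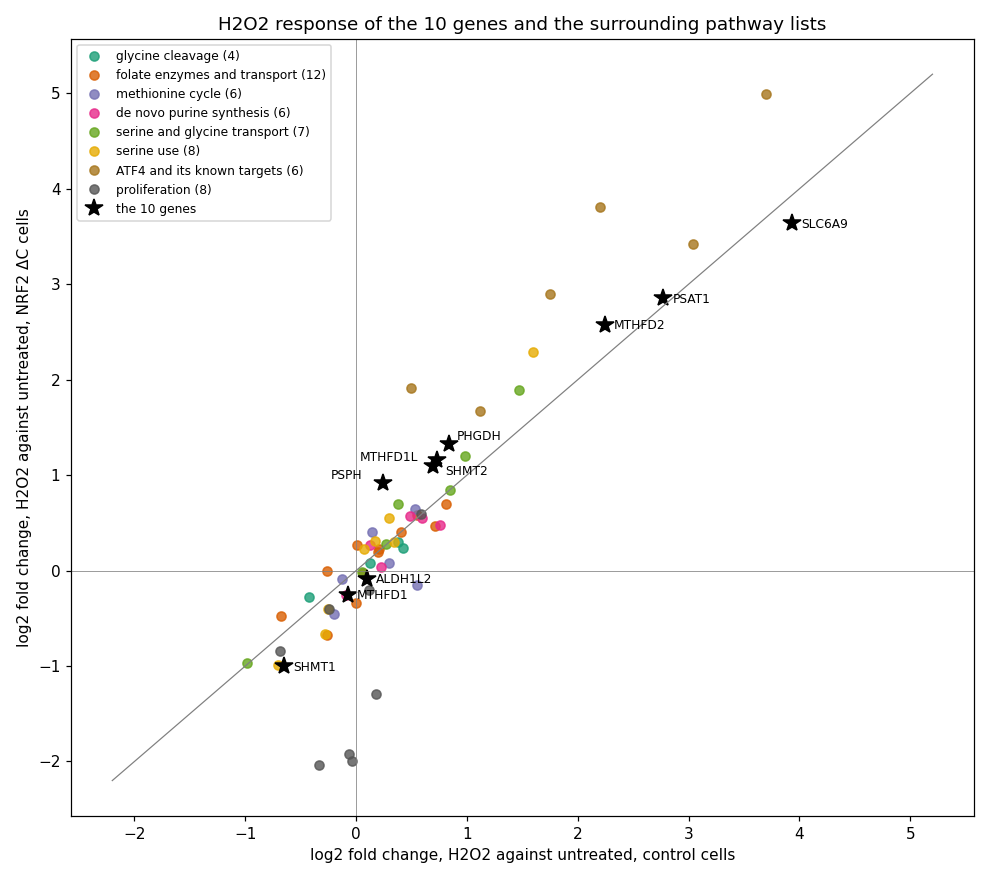
Log2 fold change with H2O2 in control cells (horizontal) and NRF2 ΔC cells (vertical) for the 10 genes (stars) and the genes of 8 lists tested in both (circles, coloured by list, number in brackets); the grey line marks equal values. PSAT1 (2.77 and 2.85) lies near the line, PSPH (0.24 and 0.91) above it and SLC6A9 (3.93 and 3.64) below it, and the ATF4 list lies above the line.

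ATF4 mRNA and several of its known targets rose in the H2O2 comparisons in which PSAT1, MTHFD2, SLC6A9 and other genes of the set rose, and their part in these changes was not tested. ATF4 was at 183.6, 188.8 and 235.7 CPM in untreated control cells, at 386.4, 446.9 and 468.3 CPM with H2O2 and at 281.1, 312.9 and 360.3 CPM with NACET. ATF4 in NRF2 ΔC cells was at 181 to 238 CPM untreated, at 497 to 833 CPM with H2O2 and at 314 to 429 CPM with NACET. ATF4 rose with H2O2 in control cells (1.12 ± 0.12, adjusted p = 0.00259, edgeR) and in NRF2 ΔC cells (1.67 ± 0.21, adjusted p = 0.00386, edgeR). With NACET it rose in control cells (0.65 ± 0.13, adjusted p = 0.0434, edgeR) and did not pass in NRF2 ΔC cells (0.81 ± 0.16, adjusted p = 0.0522, edgeR), but passed there with the replicate block (0.81 ± 0.07, adjusted p = 1.25e-07, edgeR). Of the 6 genes of this list 2 rose with NACET in control cells and 1 in NRF2 ΔC cells, and in the blocked fits 4 in each line. With H2O2 5 of the 6 rose in control cells and 6 in NRF2 ΔC cells, led by CHAC1 (3.69 and 4.99), ASNS (3.04 and 3.42) and TRIB3 (2.20 and 3.81). With H2O2, 5 of the 6 were higher in NRF2 ΔC than in control cells, led by TRIB3 (1.64), CHAC1 (1.60) and SESN2 (1.49). In the blocked interaction test 5 of the 6 also had the larger H2O2 response in NRF2 ΔC cells, ATF4 among them (-0.55, adjusted p = 0.00699, edgeR).

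Genes of proliferation, which consumes one-carbon units, were given the same tests. Of 8 tested genes 0 passed with H2O2 in control cells, and 4 fell in NRF2 ΔC cells, led by MKI67 (-2.04 ± 0.24), TOP2A (-1.996 ± 0.29) and CCNB1 (-1.92 ± 0.31). In the blocked fits PCNA was higher and MCM5 lower in control cells, and 5 genes were lower and PCNA higher in NRF2 ΔC cells. With NACET 0 of the 8 passed in either line, and the blocked fit called CCNE2 higher in control cells. Their part in the responses of the 10 genes was not tested.

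The profiles are given over the 18 samples, which share treatments, lines and replicate numbers, as a description. The log2 CPM of MTHFD1L (r = 0.967), MTHFD2 (0.961), PSAT1 (0.928), PSPH (0.912), SLC6A9 (0.889), SHMT2 (0.884) and PHGDH (0.858) correlated positively with that of ATF4 (Pearson's r), and SHMT1 (-0.68), ALDH1L2 (-0.36) and MTHFD1 (-0.071) negatively. The 8 genes outside the set whose profile was most like the mean of the 10, among 11001 genes with a mean of at least 5 CPM, were SDC1 (r = 0.967), DNAJA3, PFDN2, PA2G4P4, CIRH1A, EIF2S2, WDR77 and CBS (0.951).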

How the data were processed

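RNA was sequenced from 18 samples of ARPE-19 cells, and 1 table of read counts per gene was deposited for each. The authors made these counts with TopHat2 2.1.0 and Bowtie against hg19, counted reads with HTSeq 0.11.2 without strand and checked read quality with FastQC, per the submitters' processing notes and the methods. The gene annotation is not given in the sources used here. Each table held 23411 gene symbols (4060 with no read in any sample) and 5 summary lines, which held 25.8% to 27.9% of reads and were left out. Reads that mapped to several places (8.24% to 10.4%) were not counted, which lowers counts of genes with close copies.

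Counts were tested in R 4.3.3 with edgeR 4.0.16 (filterByExpr, TMM, quasi-likelihood test, Benjamini-Hochberg adjustment over all genes tested). Each comparison was fitted on its own 6 samples, and interactions on 12. A gene was called with an adjusted p under 0.05 and, except for interactions, a log2 fold change of 0.6 or more in size. Standard errors were worked back from the log2 fold change and the F statistic of the edgeR test, as its size over the square root of F. Alternatives were DESeq2 1.42.0, RLE scaling, no filter, 1 fit of all 18 samples, no fold limit, the replicate block and leaving out each sample. Tables were made with Python 3.11.15. On simulated counts for NACET in control cells, 88 of 100 genes changed by 1 on the log2 scale and 98 of 100 changed by 2 were called, with 6 false calls among 13740 genes, while for the interaction with NACET 36 and 94 of 100 were recovered. The simulation gave all genes 1 common spread and no shared deviation of same-numbered samples, unlike the real counts. The recovery thus checks the code and is not the power for these genes.

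Within a line, same-numbered samples deviated together (r of 0.281 to 0.700 over genes, in every pair), and the block rests on this. Replicates differed by more than sampling noise (chi-square per degree of freedom of at least 10.4), so none was counted as a duplicate. Positions (GRCh37) and transcript lengths are from GENCODE, and upstream sequences from RefSeq (GRCh38.p14). All 10 genes were named with their values, and from each pathway list at most the 3 called genes with the largest change in a comparison, plus ATF4. The genes, lists and tests were chosen with earlier results of these data known. The compartment ratios were chosen after their values were seen. The results of 2 genes of these lists are not reported here.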

Additional observations from a re-analysis of the deposited data

Results flagged for a closer look

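The H2O2 responses of 4 genes differed between the lines in the fit with the replicate block within cell line, by the test of the interaction term. That fit called 6.91% of all genes, and the fit without the block called 0.0214%. Given as the response in control cells minus that in NRF2 ΔC cells, the differences were -0.51 for PHGDH, -0.69 for PSPH, -0.44 for SHMT2 and -0.41 for MTHFD1L on the log2 scale, and none of the 4 passed without the block, where PHGDH had -0.50 (adjusted p = 0.923, edgeR), PSPH -0.69 (adjusted p = 0.418, edgeR), SHMT2 -0.44 (adjusted p = 0.919, edgeR) and MTHFD1L -0.42 (adjusted p = 0.868, edgeR). The sizes thus stayed and the errors changed with the block. ATF4 had -0.57 without the block (adjusted p = 0.848, edgeR) and -0.55 with it, and its part in these differences was not tested. NRF2 ΔC cells are 1 clone, so the edit and the clone cannot be told apart.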

How the results depend on the processing

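Of the counts of called genes, 49 of 66 stayed within 1.5 times of the reported count under another test, scaling, filter, fit, block or fold limit, and 54 of 78 when 1 sample was left out. The cause of the other shifts was not tested. With DESeq2, 3 genes passed for NACET in control cells, 3 for NACET in NRF2 ΔC cells, 1 between the lines with NACET and 4 between the lines with H2O2. With RLE scaling 1 passed between the lines with H2O2, and without a filter 1 with NACET. In 1 fit of all 18 samples, 2 passed for NACET in control cells, 4 for H2O2 in control cells, 3 for NACET in NRF2 ΔC cells and 1 between the lines with NACET. The shares of all genes called in these alternative fits are not given here. A larger count may therefore only reflect a fit that called more genes.

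With the replicate block 3 genes passed for NACET in each line (beside 7.49% of all genes in control and 8.82% in NRF2 ΔC cells). For NACET against H2O2 in NRF2 ΔC cells 8 passed (beside 15.5%), and 4 for the interaction of H2O2 and cell line (beside 6.91%). Between the lines the numbers are only shared (r of same-numbered samples from -0.314 to 0.585), and the block gave 2 genes in untreated cells, 2 with NACET and 4 with H2O2. The shares of all genes called in these between-line fits are not given, so the counts cannot be set against them. The block changed no other count by over 1.5 times.

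Leaving out 1 sample also changed the share of all genes called, given in brackets. In control cells it gave 0 to 2 genes for NACET (0.223% to 2.43%) and 3 to 6 for H2O2 (2.09% to 7.57%). In NRF2 ΔC cells it gave 0 to 2 for NACET (0% to 3.38%) and 4 to 8 for H2O2 (2% to 18.8%). NACET against H2O2 in NRF2 ΔC cells gave 3 to 6 (1.87% to 11.7%). Between the lines leaving out 1 sample gave 0 to 1 in untreated cells (1.88% to 6.49%) and 0 to 8 with H2O2 (2.91% to 17.6%). It gave 0 for the interaction with NACET (0.014% to 0.0562%) and 0 for that with H2O2 (0% to 0.0776%). The H2O2 log2 fold change of ALDH1L2 ran from -0.14 to 0.43 in control cells and from -0.31 to 0.17 in NRF2 ΔC cells when 1 sample was left out, and the interaction with H2O2 from -0.32 to 0.26 for PSAT1 and from -0.013 to 0.44 for SLC6A9. None of these was called. At 0.27 to 1.76 CPM ALDH1L2 was limited by depth.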
